A study of Mus musculus with 12 samples.

Results

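The trefoil factors Tff1, Tff2 and Tff3 are the whole of a small gene family, and all 3 were found by name in every table, among 56061 identifiers listed for cultured cells and 55878 for tumors. They were followed across 12 RNA sequencing libraries of HM1, an ovarian cancer line from the mouse, with 4 groups of 3 libraries. The groups were cultured HM1 cells with a control short hairpin RNA, cultured HM1 cells with a hairpin that knocks down St3gal3, and tumors grown from each of these lines. The labels call the genotype wild type for the control groups and ST3GAL3 knockdown for the others. The family was chosen by the measured tumor levels of Tff2, which differed between knockdown and control tumors, so the tumor values of its members are given as a description, with no test. The hairpin sequence, the number of clones behind each line, and the strain, age and tumor site of the host mice are not given in the sources used here. Nothing in the labels says whether the 3 samples of a group are separate cultures or animals, so spreads and p-values cover the variation between these samples only, which may be technical.

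Trefoil factors are small secreted proteins built around the trefoil domain, a compact fold held together by disulfide bonds that resists digestion. They are released with mucins onto mucous epithelia, where they take part in protecting and resealing the epithelial surface after injury. Tff1 is typical of gastric pit cells, Tff2 of gastric mucous neck cells and duodenal Brunner's glands and also of the pancreas, and Tff3 of intestinal goblet cells. Tff2 carries a pair of trefoil domains, whereas Tff1 and Tff3 carry a single domain. The 3 genes lie next to each other on mouse chromosome 17.

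The values are TPM, in which each gene is scaled by its length and by the total of its library, so levels of different genes can be compared. TPM keeps no record of read depth, and the depth behind each value is unknown. The targeted gene St3gal3, a sialyltransferase, separated the groups as labelled: it stood at 9.59 to 12.93 TPM in control cultures and 1.25 to 1.83 TPM in knockdown cultures, while control tumors held 14.00 to 15.39 TPM and knockdown tumors 5.76 to 7.28 TPM. Of the 14 epithelial and ovarian tumor markers that check the labelled cell type, the keratin genes Krt8, Krt18 and Krt19 were abundant in all libraries. Epcam, Cldn4, Cldn7, Esrp1, Muc16 and Pax8 stayed below 1 TPM in all 12. In the cultures 10 of the 14 did so, as the adhesion gene Cdh1, Krt7, Cldn3 and Wt1 were also below 1 TPM there. Knockdown tumors 1 and 3 stood apart by their skeletal muscle transcripts, which summed to 95.5 and 70.7 TPM against 2.40 to 14.4 TPM in the other tumors.

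Tff2 was nearly silent in culture, present in every tumor, and much lower in knockdown than in control tumors. In control cultures 1, 2 and 3 it was listed at 0.15, 0 and 0.32 TPM, and in the knockdown cultures at 0.17, 0.16 and 0.13 TPM. All 6 cultures lay below 1 TPM and the groups overlapped. Control tumors 1, 2 and 3 held 49.19, 28.26 and 22.16 TPM of Tff2, and knockdown tumors 1, 2 and 3 held 3.97, 4.01 and 3.68 TPM. The tumor groups were far apart, with the lowest control tumor well above the highest knockdown tumor, and control tumor 1 was the highest of all. Control tumors averaged 33.2 ± 14.2 TPM and knockdown tumors 3.89 ± 0.180 TPM (SD, n = 3 each), so knockdown tumors held 11.7% of the control mean, an 8.54-fold lower level. On the log2(TPM + 1) scale, which understates changes of low genes, the difference was -2.73 (SE 0.272). Of 14915 genes tested in tumors, 10 (0.067%), Tff2 included, had a difference this low or lower. By level, Tff2 ranked between 2772 and 5730 among all genes in the control tumor libraries and between 11144 and 11690 in the knockdown tumor libraries.

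Tff1 had the same order of groups, at levels above Tff2 in every culture and below it in every tumor. It was at 0.94, 0.82 and 0.48 TPM in control cultures and 0.50, 0.86 and 0.51 TPM in knockdown cultures, and these groups overlapped. Control tumors 1, 2 and 3 held 8.13, 4.95 and 3.97 TPM, and the knockdown tumors 2.28, 2.62 and 1.36 TPM. Tumor groups did not overlap, and control tumor 1 was again the highest. Mean levels were 5.68 ± 2.17 and 2.09 ± 0.652 TPM (SD, n = 3 each), the knockdown mean being 36.7% of the control mean, a difference of -1.09 on the log2 scale (SE 0.260). Among the 14915 genes tested, 163 had a change at or below that of Tff1 (1.09%). Both measured members were lower in every knockdown tumor than in every control tumor, as were 14.9% of all genes tested, and this contrast is the source of the choice of the family.

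Tff3, the goblet cell member, was listed at 0 TPM in all 12 libraries. Of the 3 members, 2 therefore passed the filter in tumors (a group mean of at least 1 TPM in either group), and 0 passed it in culture.

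**Figure D1:**
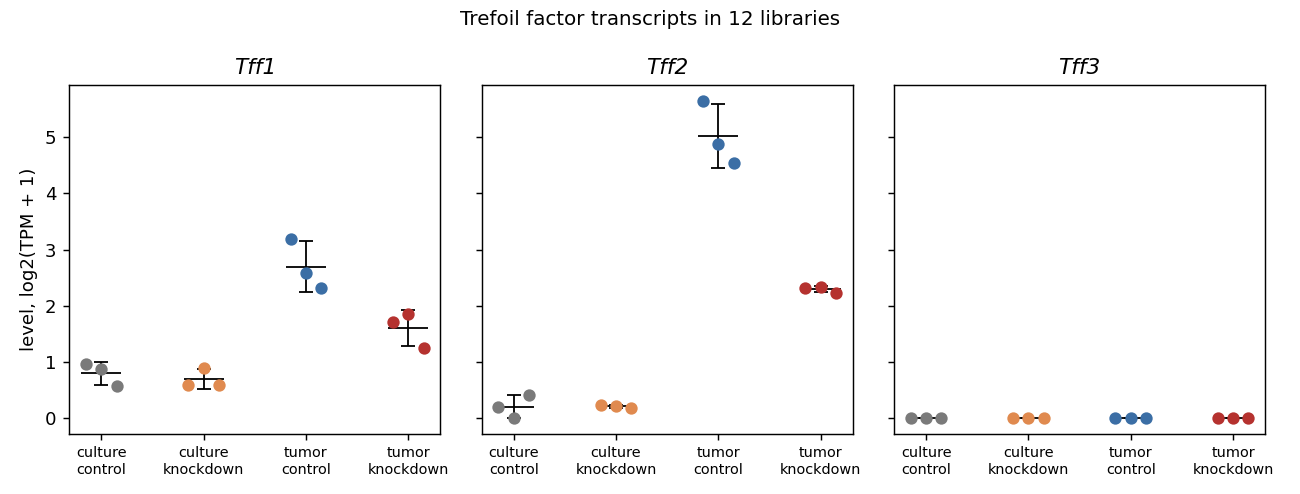
Levels of Tff1, Tff2 and Tff3 on the log2(TPM + 1) scale in each of the 4 groups, with 1 point per library and the group mean with SD as a bar. Tff1 and Tff2 are lowest in the cultures and highest in control tumors, knockdown tumors lie between, and Tff3 is at 0 in all 12 libraries.

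The order of levels was the same for both expressed members: control tumors, then knockdown tumors, then the cultures of both lines. For Tff2 the lowest knockdown tumor, at 3.68 TPM, was above the highest culture, at 0.32 TPM. For Tff1 the corresponding values were 1.36 and 0.94 TPM, a narrower gap. Only the control and knockdown cultures, next to each other in the order, did not differ beyond their spread. Because the authors normalized the tables of cells and of tumors apart from each other, these gaps are descriptive. As differences of mean log2(TPM + 1), tumors exceeded cultures of the same line by 4.82 for Tff2 and 1.90 for Tff1 in the control line, and by 2.08 and 0.91 in the knockdown line.

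The 2 members also kept a near-constant proportion within control tumors. There Tff2 was 6.05, 5.71 and 5.58 times Tff1 in tumors 1, 2 and 3, although both genes varied about 2-fold between these tumors (highest over lowest 2.22 for Tff2 and 2.05 for Tff1). In knockdown tumors 1, 2 and 3 the ratio was 1.74, 1.53 and 2.71, below every control tumor. Tff2 hardly varied among knockdown tumors, with a coefficient of variation of 4.63% against 42.7% in control tumors. For Tff1 the coefficients were 31.2% and 38.3%.

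In culture, where no host cells are present, the knockdown contrast was not used to choose the family and can be tested. Tff1 averaged 0.747 ± 0.239 TPM in control and 0.623 ± 0.205 TPM in knockdown cells (SD, n = 3 each), and Tff2 averaged 0.157 ± 0.160 and 0.153 ± 0.0208 TPM. The log2 differences were -0.10 for Tff1 and 0.0049 for Tff2, with two-sided exact permutation p = 0.7 and p = 0.9, where 3 against 3 libraries cannot give a p under 0.1. Both were under the filter of the fit across all genes. In the fit without that filter limma gave adjusted p = 0.962 for Tff1 (SE 0.171) and 1 for Tff2 (SE 0.115). At these levels, with unknown depth, a difference was not detectable in culture. Across all genes tested there, limma called 4 of 13492 (0.0296%).

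Trefoil peptides have been reported to act through several surface proteins, and 8 genes of such receptors and their partners were read beside the family. Cxcr4, a chemokine receptor reported to respond to TFF2, was listed at 0 in all 6 cultures and at 10.92 to 13.49 TPM in control tumors against 9.16 to 14.73 TPM in the knockdown group, so the tumor groups overlapped (limma adjusted p = 0.758). Its ligand gene Cxcl12 was likewise near 0 in culture and ranged from 3.12 to 12.54 TPM over the 6 tumors (adjusted p = 0.947). Ackr3, the atypical receptor for Cxcl12, was expressed in HM1 cells themselves, at 10.36 to 11.78 TPM in culture, and at 34.13 to 47.99 TPM in tumors (adjusted p = 0.419). Egfr, the epidermal growth factor receptor, was at 7.04 to 9.60 TPM in culture and 5.50 to 7.65 TPM in tumors (adjusted p = 0.588).

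Of the 6 receptor and partner genes tested in tumors, only the protease-activated receptor genes did not overlap between groups, 1 higher and 1 lower. Of all genes tested, 24.7% did not overlap in either direction. F2rl1, which encodes PAR2, read 25.98, 26.24 and 24.56 TPM in the controls and 42.50, 34.88 and 33.11 TPM in the knockdown tumors, a log2 change of 0.50 (SE 0.103) that missed the threshold (limma adjusted p = 0.0702). Its culture levels, 20.72 to 27.81 TPM, overlapped between the lines. F2rl3, which encodes PAR4, was at 1.81, 1.46 and 1.66 TPM in control tumors against 0.94, 1.08 and 0.89 TPM in the knockdown group (log2 change -0.42, SE 0.150, limma adjusted p = 0.202). Lingo2 and Lingo3 did not exceed 0.05 TPM in any library.

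Mucins and secreted partners that are packaged with trefoil factors were almost absent. Of 9 such genes, 8 stayed below 1 TPM in all tumors: the gel-forming mucins Muc2, Muc5ac, Muc5b and Muc6, the gastrokines Gkn1 and Gkn2, the mucus protein Fcgbp and the scavenger receptor-like Dmbt1. Muc6, the mucin that accompanies Tff2 in gastric glands, was at 0.08 to 0.18 TPM in control tumors and 0.10 to 0.32 TPM in knockdown tumors. Muc1, a membrane mucin, was at 1.62 to 2.48 TPM in control tumors against 1.31 to 3.35 TPM in the knockdown group (limma adjusted p = 0.961).

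Among 18 transcription factors linked to trefoil genes, 9 were tested in tumors. Gata4, Foxa2 and Sox2 were listed at 0 in all 6 tumors, while HM1 cultures held gut and pancreas regulators such as Pdx1 (20.79 to 34.72 TPM) and Cdx2 (8.99 to 11.54 TPM). Sox9, a factor of ductal and progenitor epithelium, was at 62.74, 65.06 and 68.03 TPM in control tumors against 48.54, 46.48 and 54.84 TPM in the knockdown group (log2 change -0.38, SE 0.0799, limma adjusted p = 0.0742). Foxa1, a pioneer factor of endodermal and hormone-responsive epithelia, was at 26.92 to 29.15 TPM in control tumors against 22.26 to 24.34 TPM in the knockdown group (log2 change -0.27, adjusted p = 0.122). Of the 9 tested factors, 3 did not overlap in the lower direction (Sox9, Foxa1 and Klf5) and 2 in the higher (Pdx1 and Cdx2). Of all genes tested, 24.7% did not overlap in either direction, and limma called 0 of the 9. Pdx1 was at 17.8 ± 0.937 TPM in control tumors and 21.2 ± 1.59 TPM in knockdown tumors (limma adjusted p = 0.214). Klf4, a factor of differentiated epithelium, was at 53.67 to 72.05 and 39.94 to 54.37 TPM (limma adjusted p = 0.209). In culture the lowest p of this list was that of Cebpb, an inflammatory regulator, at 36.63, 63.03 and 43.59 TPM in control and 25.77, 20.93 and 18.42 TPM in knockdown cells (log2 change -1.08, SE 0.210, limma adjusted p = 0.518). Its tumor groups overlapped.

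Over the 35 genes of these 3 lists, 16 were tested in tumors and limma called 0, against 1.51% of all genes tested. An unadjusted p under 0.05 was found for 8 of the 16, against 18.7% of all genes, and 7 of the 16 had groups that did not overlap, against 24.7%. Their median log2 change was -0.07, beside -0.05 over all genes. In culture 13 were tested, 0 were called, 1 had an unadjusted p under 0.05 (3.42% of all genes) and the median was -0.03, beside 0.02 over all genes. Both directions occurred among the 16. Each had a smaller difference than Tff2 or Tff1, which is a description only, since the tumor levels of Tff2 chose the family.

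**Figure D2:**
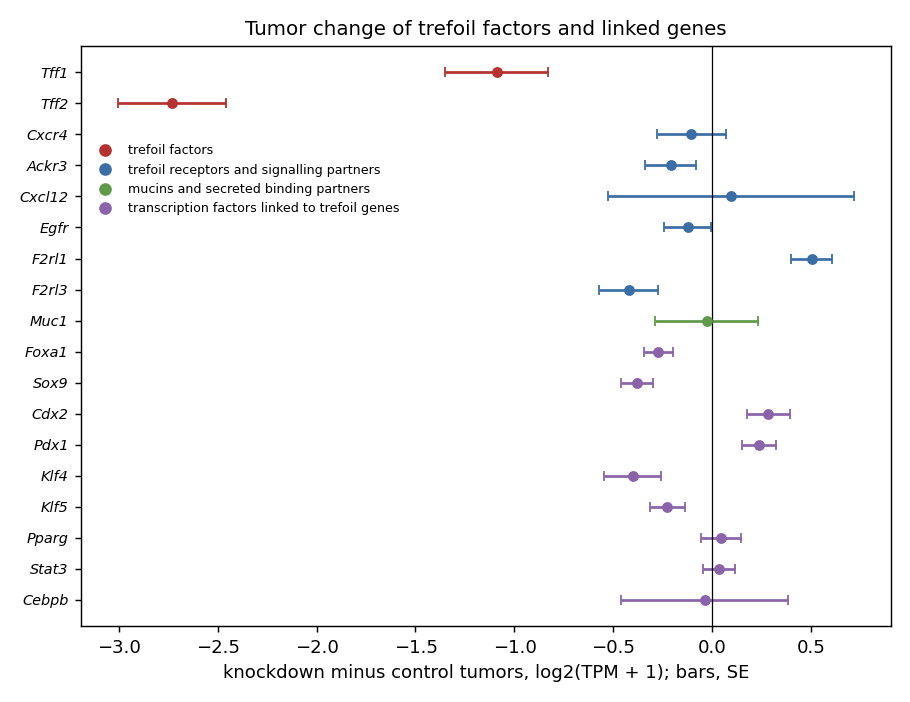
Differences between knockdown and control tumors in mean log2(TPM + 1), with SE as bars, for the 2 measured trefoil factors and the 16 tested genes of the linked lists, colored by list. Tff2 at -2.73 and Tff1 at -1.09 lie left of all others, which range from -0.42 for F2rl3 to 0.50 for F2rl1.

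Genes of the cell types that normally make trefoil factors were read as marker lists. In tumors 11 of 12 gastric gland genes were below 1 TPM in every library, with Gkn2 and Cblif at 0 throughout. The exception was Aqp5, a water channel of glandular epithelium, at 112.82 to 155.64 TPM in culture and 6.85 to 16.31 TPM in tumors, so it ran opposite to Tff2 between culture and tumor. Among tumors Aqp5 was at 11.12 to 16.31 TPM in control and 6.85 to 10.70 TPM in knockdown libraries (log2 change -0.62, SE 0.189, limma adjusted p = 0.154). All 10 goblet cell genes were below 1 TPM in every tumor, and Agr2, Agr3, Retnlb and Atoh1 were at 0. The list sums did not overlap between tumor groups. Gastric gland genes, mostly Aqp5, reached 11.8 to 16.7 TPM in control and 7.01 to 11.1 TPM in knockdown libraries. Goblet cell genes, mostly Zg16 and Clca1, reached 1.09 to 1.73 and 0.42 to 0.87 TPM. Zg16 and Clca1 each overlapped between tumor groups, and 0 of the 10 goblet cell genes were tested there. The part of these cell types in the Tff2 difference was not tested.

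Most pancreatic acinar genes were present in culture and nearly absent in tumors, the reverse of Tff2. In culture 14 of 16 reached 1 TPM in at least 1 library, among them the protease genes Ctrb1 (19.45 to 24.99 TPM) and Cela1 (45.81 to 52.57 TPM), while in tumors 13 of 16 stayed below 1 TPM. Cela1 was an exception and, like Tff2, was higher in tumors than in cultures of the same line, at 52.05 to 61.73 TPM, with overlapping tumor groups (limma adjusted p = 0.534). Cpa1, a carboxypeptidase gene, was at 0.99 to 1.12 TPM in control tumors and 0.20 to 0.28 TPM in knockdown tumors, which did not overlap (log2 change -0.75, SE 0.177, limma adjusted p = 0.0938). The oviduct gene Ovgp1 was at 1.26 to 2.39 TPM in control tumors against 0.61 to 1.08 TPM in the knockdown group (limma adjusted p = 0.250).

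The libraries are bulk tissue, in which fewer cells of a type and less RNA per cell cannot be told apart, and several marker sums moved with Tff2. The sum of the 14 epithelial and ovarian tumor genes came mostly from Krt8, Krt18 and Krt19. It was 3437, 3287 and 3232 TPM in control libraries 1, 2 and 3 and 2831, 2630 and 2567 TPM in the knockdown libraries. Limma called 0 of the 7 tested genes, beside 1.51% of all genes tested. Of the 7, 4 were lower without overlap, beside 14.9% of all genes tested, and 2 had a positive change, Cldn3 and Wt1. The knockdown mean of this sum was 80.6% of the control mean, against 11.7% for Tff2 and 36.7% for Tff1. Per 1000 TPM of that list, Tff2 was at 14.3, 8.60 and 6.86 in control tumors and 1.40, 1.52 and 1.43 in knockdown tumors. On this scale the knockdown mean was 14.7% of the control mean for Tff2 and 45.7% for Tff1. The sum varied far less between tumors than the Tff2 groups differed, so this scaling could not have brought those groups together. The part of epithelial cell content in either difference was not tested.

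The T cell sum was higher in every knockdown tumor than in every control tumor. The 8 T cell genes summed to 17.1, 32.7 and 41.2 TPM in control libraries 1, 2 and 3. In the knockdown libraries the sums were 64.6, 49.5 and 53.2 TPM. Limma called 0 of the 8, and the share called of all genes tested, 1.51%, stands beside every list here. Cd4 and Trac overlapped between the groups, and the other 6 were higher without overlap, as were 1463 of 14915 genes tested. Control tumor 1, which had the highest Tff2, had the lowest T cell sum. All the listed T cell genes but Cd4 were lowest there among the control tumors. Cd8a was at 0.24 TPM in control tumor 1, while Cd4 was at 4.29 TPM against 3.70 TPM in control tumor 2. Fibroblast genes, mostly Col1a1, Col1a2 and Col3a1, summed to 1123 to 1518 TPM in control tumors against 737 to 1129 TPM in the knockdown group. Of the 8 tested, 6 had a negative change and 2, Pdgfra and Lum, a positive one. Only Fap was called, 1 of 8, and it fell (log2 change -0.89, SE 0.105, limma adjusted p = 0.0148). Fap lost its call without control tumor 2 or 3 or knockdown tumor 1. Endothelial genes summed to 52.9 to 76.7 and 35.6 to 53.5 TPM with 0 of 6 called. Macrophage and monocyte genes summed to 1067 to 1304 and 980 to 1196 TPM, with 1 of 8 called, Ly6c2, a marker of inflammatory monocytes that rose (log2 change 1.85, SE 0.201, limma adjusted p = 0.0139). Ly6c2 lost its call without control tumor 2 or knockdown tumor 1. B cell genes summed to 0.83 to 2.26 and 1.00 to 2.84 TPM. The part of these cell types in the Tff2 and Tff1 differences was not tested. With knockdown tumors 1 and 3, which held the most skeletal muscle transcripts, left out, the knockdown group was tumor 2 alone, and the differences from the 3 control tumors were -2.69 for Tff2 and -0.84 for Tff1, again as a description.

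**Figure D3:**
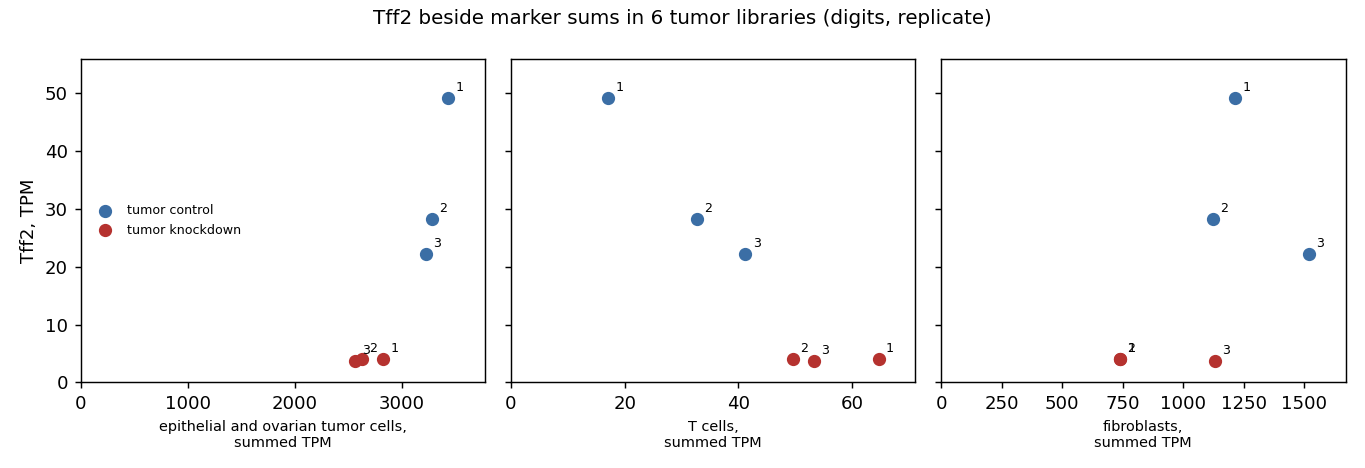
Tff2 level in TPM against the summed TPM of the epithelial and ovarian tumor, T cell and fibroblast marker lists in the 6 tumor libraries, with digits giving the replicate. Control tumors lie at 22.16 to 49.19 TPM of Tff2 with T cell sums of 17.1 to 41.2 TPM, and knockdown tumors at 3.68 to 4.01 TPM with sums of 49.5 to 64.6 TPM.

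Of the 6 genes nearest to the family on chromosome 17, 0 were lower in every knockdown tumor than in every control tumor, beside 14.9% of all genes tested, and only Abcg1 and Rsph1 passed the filter in tumors. In RefSeq's gene order on GRCm38.p6, used here for names only, the 3 nearest protein-coding genes are Abcg1, Umodl1 and Glp1r beside Tff3 and Tmprss3, Ubash3a and Rsph1 beside Tff1. Abcg1, a cholesterol exporter, was at 16.87 to 28.78 TPM in control tumors against 18.50 to 23.91 TPM in the knockdown group (limma adjusted p = 0.953). Tmprss3, the direct neighbor of Tff1, did not exceed 0.04 TPM in any library. Ubash3a, a regulator of T cell receptor signaling, was at 0.25 to 0.60 TPM in control tumors against 0.85 to 1.24 TPM in the knockdown group, under the filter and in the direction opposite to Tff2. Rsph1, a gene of motile cilia, was at 1.12 to 1.72 and 1.35 to 1.45 TPM (limma adjusted p = 0.878), and Umodl1 and Glp1r stayed below 1 TPM.

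To find genes with the pattern most like that of Tff2, profiles of log2(TPM + 1) centred on each gene's mean were compared by root mean square difference over 11902 named genes that averaged 2 TPM or more in 1 of the groups. Over all 12 libraries the nearest were the linker histone gene H1f2 (difference 0.59), the imprinted gene Mest (0.62), the inducible heat shock gene Hspa1b (0.67) and the eosinophil-attracting chemokine gene Ccl11 (0.68), where the median gene differed by 1.94. Mest was at 0.03 to 0.33 TPM in culture, 21.05 to 27.91 TPM in control tumors and 8.41 to 11.42 TPM in knockdown tumors. Ccl11 was at 0 to 0.07 TPM in culture, 10.75 to 21.27 TPM in control tumors against 4.61 to 10.08 TPM in the knockdown group. Tff1 ranked 506 by this measure (1.19), because its range was narrower.

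Within the 6 tumor libraries the nearest genes were the small nucleolar RNA gene Snord3a (0.40), the small heat shock protein gene Hspb1 (0.52), the actin-binding advillin gene Avil (0.68) and Tppp3, a tubulin-binding protein gene (0.73), with a median of 1.39 over all genes compared. Tff1 ranked 11 here (0.84). Hspb1 read 1495, 742 and 745 TPM in the control libraries 1, 2 and 3 and 182, 214 and 365 TPM in the knockdown libraries. Tppp3 was at 71.05, 17.88 and 31.47 TPM and 10.83, 9.57 and 13.86 TPM. In Hspb1, Tppp3, Snord3a and Avil, as in both trefoil factors, control tumor 1 was the highest library. Avil was at 12.71 to 17.44 TPM in control tumors against 3.87 to 5.81 TPM in the knockdown group. Unlike Tff2, Avil, Tppp3 and Hspb1 were also expressed in culture. There Avil was at 10.96 to 14.39 TPM and Tppp3 at 2.28 to 3.14 TPM. Hspb1 was at 140.48 to 149.35 TPM in control and 96.28 to 131.28 TPM in knockdown cultures. Snord3a was at 1.70 TPM in control culture 1 and 0 in the other cultures. These genes were picked for their likeness to Tff2, so neither their differences between tumor groups nor their peak in control tumor 1 is a separate result.

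**Figure D4:**
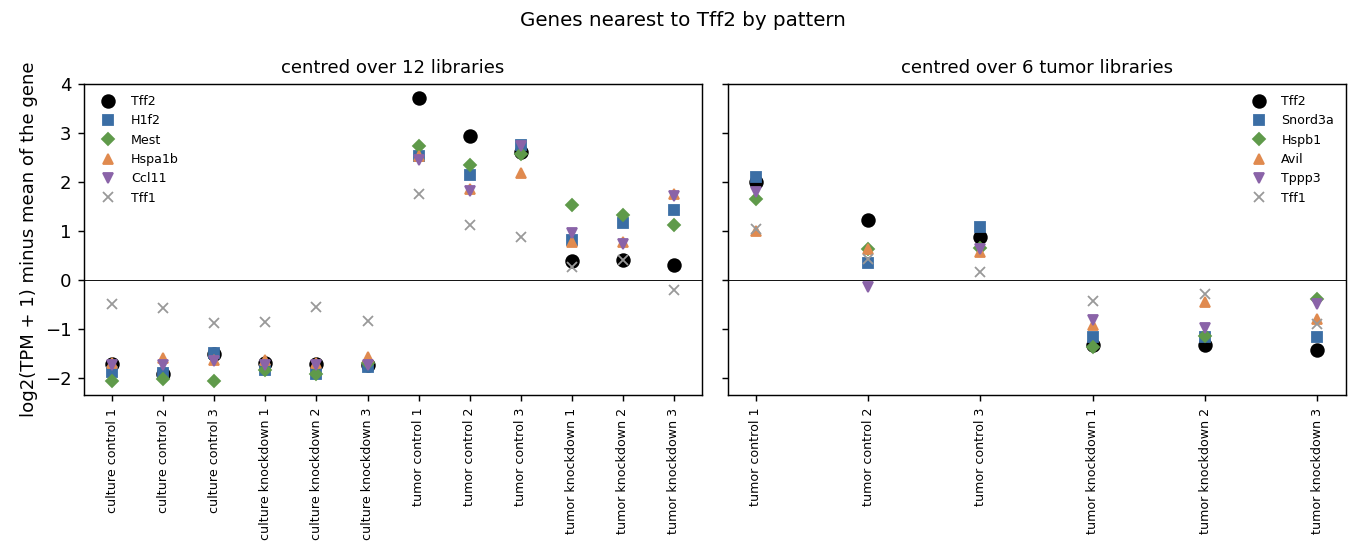
Centred log2(TPM + 1) of Tff2, Tff1 and the 4 genes nearest to Tff2, over 12 libraries on the left and over 6 tumor libraries on the right, with 1 point per gene and library. On the left the culture values are the lowest of each gene, and those of Tff1 lie above those of the other genes. On the right control tumor 1 is the highest library for all 6 genes shown, 4 of them picked for likeness to Tff2.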

How the data were processed

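Total RNA of 6 HM1 cultures and 6 HM1 tumors was sequenced with Illumina libraries, per the labels' protocols. The authors deposited 1 table per sample with gene identifier, name, description, length and TPM, recognised from values that sum to 1000000 to rounding. Tools listed without roles or versions in the submitters' processing notes are RSEM, HISAT and fastp, with the build GRCm39. Muc6 has a blank name in the tables and was taken by its description. Groups and replicate numbers came from the sample titles. Cultures and tumors were fitted separately, 6 libraries each, with limma 3.58.1 (R 4.3.3; trended, robust, two-sided) on log2(TPM + 1). Genes entered a fit when either group averaged 1 TPM or more, and were called when the p adjusted across the fit by Benjamini-Hochberg was under 0.05. The script was tested on simulated data. Exact permutation tests used scipy 1.17.1, and figures matplotlib 3.10.9. The members and gene lists were chosen with earlier results of these data known. Named were the members, St3gal3, measured receptors and binding partners, up to 4 members of other lists by smallest p in tumors (fewer were kept for length, and further list members that illustrate a level, such as Ctrb1, Cd8a and Cebpb, were picked once their values were known), the 4 genes nearest Tff2 over 12 and over 6 libraries, and 3 neighbors per side.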

Additional observations from a re-analysis of the deposited data

Results flagged for a closer look

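Mest, named for its likeness to Tff2, was lower in all knockdown tumors than in all control tumors (log2 change -1.23) and higher in all knockdown cultures than in all control cultures, at 0.13 to 0.33 against 0.03 to 0.06 TPM. The difference between the tissues was not tested.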

How the results depend on the processing

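Over the 9 alternatives that can move them, the Tff2 difference in tumors ranged from -2.98 to -2.41. That of Tff1 ranged from -1.39 to -0.84. All lay within 1 SD of the reported values, taking the pooled SD within groups on the log2 scale. Leaving out 1 of 3 libraries cannot move a difference further than that, so for those alternatives the closeness was fixed in advance. Another 4 (no filter, 1 TPM in 3 libraries, the replicate block and all 4 groups in one fit) leave a difference of group means as it is by construction, as do the 2 further fits that include the members in culture. Of 13492 culture genes, 4 were called as reported, 11 with a pseudocount of 0.1, 8 with a filter of 1 TPM in 3 libraries, 8 with all 4 groups in one fit, and 7 to 15 when a library was left out. In tumors 225 genes were called, against 82 with no filter, 599 with all 4 groups in one fit, 72 without knockdown tumors 1 and 3 (chosen after seeing the data, with 1 knockdown library left, assumed to vary like the controls), and 38 to 229 when a library was left out (38 without knockdown tumor 1, 65 without knockdown tumor 2, 103 without control tumor 2 and 131 without control tumor 3). With the replicate number as a block the tumor count was 2 and the culture count 4. The numbers showed no sign of pairing the tumors. Deviations of same-numbered tumors correlated at -0.14, -0.017 and 0.049, and those of differently numbered tumors at -0.14 to 0.15. A weak pairing would not be seen with 3 samples per group. Linked genes had 0 calls in tumors as reported. With all 4 groups in one fit 1 was called higher (F2rl1, limma adjusted p = 0.0414), and leaving out a library gave 0 to 1 lower (Sox9 without knockdown tumor 3, limma adjusted p = 0.0471). St3gal3 lost its tumor call with the block (limma adjusted p = 0.0768) and in that fit with 1 knockdown library (0.0531), and Fap and Ly6c2 were not called under either. The cause of these shifts was not tested. Levels near 0 in culture are limited by the unknown depth.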
